A study of Mus musculus with 12 samples.

Results

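The cytosolic ribosomal protein genes were followed across 4 sorted divisions of mouse CD4 T cells. Members were all probes whose annotated symbol starts with Rpl or Rps and a number, or is Rplp0, Rplp1, Rplp2 or Rpsa, without the Rps6k kinases and without symbols carrying -ps. Only probes detected, at p under 0.05, on 3 arrays or more out of 12 were kept. Of 96 probes with such a symbol, 80 were detected, out of 17829 detected among 45281 on the array. They stood for 58 of 65 genes: 31 of the large subunit, 21 of the small subunit, and 6 paralogs or partner genes that share the naming.

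DO11.10 mice carry a transgenic T cell receptor for an ovalbumin (OVA) peptide, and their naive CD4 T cells were labelled with the division dye CFSE and moved into Balb/c hosts. The hosts were immunized with that peptide in complete Freund's adjuvant (CFA), and lymph node cells were sorted within 3 days by dye dilution. D3, D4, D6 and D8 had divided 2, 3, 5 and 7 times per the labels, and each had 3 arrays, 1 from each of 3 independent experiments. All groups share the transgene, the transfer and the immunization, there was no undivided or unimmunized group, and no gate on the transferred receptor is named. Per the design text, D4 readily became memory cells and D3, D6 and D8 did so less.

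Each ribosome is built from a small subunit, which reads the mRNA, and a large subunit, which joins amino acids, and most of its proteins are present once per particle. Their mRNAs are among the most abundant of growing cells. In mammals most of them begin with a run of pyrimidines, the 5' terminal oligopyrimidine or TOP motif, through which mTOR signalling controls their translation. Activated T cells make many ribosomes before and during their first divisions.

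The start regions of the ribosomal protein genes with the steadiest differences between D3 and D8 (described further on) are shown because the TOP motif lies at the start of the transcript. They are the 5 such genes that the RefSeq promoter table (GRCm38.p6) held, with 40 bases before and 20 bases from the annotated start, 5′ to 3′ on the gene's strand. Capitals mark runs of at least 6 letters that are all C or T, wherever they lie in the window. The runs of Rpl22 and Rps15 and the first of Rpl34 lie wholly before the annotated start, outside the transcript as annotated. That of Rpl22 lies more than 20 bases before it, outside the window counted below.
Rpl22, chr4:152325686-152325745, plus strand: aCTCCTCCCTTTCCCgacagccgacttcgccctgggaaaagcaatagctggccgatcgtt
Rps15, chr10:80292391-80292450, plus strand: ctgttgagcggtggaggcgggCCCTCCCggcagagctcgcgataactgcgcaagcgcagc
Rpl34, chr3:130730379-130730438, minus strand: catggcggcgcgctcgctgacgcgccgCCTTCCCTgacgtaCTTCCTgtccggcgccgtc
Rpl13a, chr7:45128726-45128785, minus strand: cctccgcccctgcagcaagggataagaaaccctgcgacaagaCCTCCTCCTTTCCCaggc
Rplp0, chr5:115559427-115559486, plus strand: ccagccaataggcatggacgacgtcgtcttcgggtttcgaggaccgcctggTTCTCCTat
The table lists 2 starts for Rpl22 and for Rpl34, of which the first is printed.

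Of the 58 genes, 49 matched the promoter table, with 58 starts. A run of at least 6 C or T letters on the gene's own strand, within 20 bases on either side of the start, stood at 34 of these (58.6%), against 12308 of 32851 starts of all genes (37.5%). The other strand was not searched. Of the 32 genes with such a run 4 were called higher and 6 lower in D8 than in D3, and of the 17 without it 0 were higher and 5 lower, where 17.6% of all genes were called higher and 18.9% lower. These are matches of letters near annotated starts, and such starts can lie several bases from the true one.

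Most ribosomal protein probes were very bright. Mean log2 intensity after normalization ran from 4.65 to 14.91 over the 80 probes, and 47 of them (58.8%) lay at 12 or above, against 2.68% of all detected probes. The brightest value on every array was 15.01, and Rplp1, a protein of the ribosomal stalk, gave that value in experiments 1 and 2 of D8. Rps29 had the same log2 intensity, 14.78, in D3 and D8 of experiment 2. Quantile normalization gives probes that rank near the top of every array nearly the same value, so values there are narrowly spaced.

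The 16 undetected probes passed the threshold on 0 arrays each. The probe just inside the rule belonged to Rpsa, the laminin receptor homologue of the small subunit, and was detected on 4 arrays, of which 1 was of D3, 1 of D6 and 2 of D8. The other 79 probes were detected on 10 or more arrays. Rpl14, Rpl17, Rps20 and Rps23, and the genes Rpl3l, Rpl39l and Rps23rg1, had undetected probes only. RefSeq lists 89 protein-coding genes that match the symbol rule, and 25 of these, among them Rpl5, Rpl8 and Rpl11, are not named for any probe in the annotation used here and were not analysed here.

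The cells carried T cell genes: all 7 measured T cell markers, Cd3d, Cd3e, Cd3g, Cd247, Cd4, Cd28 and Trat1, were detected on 12 of 12 arrays. Cd8a, Pax5, Itgam, Adgre1, S100a9, Ncr1, Klrb1c and Alas2 were detected on 0 arrays, but Cd8b1 on all 12. Cd8b1 was bright, with a mean log2 intensity of 11.67 in D3 and 11.30 in D8, above Cd4 at 8.13 and 8.22. Of 4 measured B cell markers 2 were detected on 3 or more arrays, as were 2 of 7 myeloid, 2 of 3 erythroid and 1 of 3 NK cell markers. The summed B cell markers ranged from 106 to 135 (normalized intensity) in D3, 124 to 139 in D4, 150 to 178 in D6 and 138 to 210 in D8. The NK cell markers ranged from 80.1 to 92.7, 79.2 to 98.4, 111 to 171 and 135 to 209, and both ranges in D8 lay above those in D3. The erythroid markers ranged from 56.7 to 202 in D3 and from 59.7 to 94.7 in D8. Of the detected B cell markers, Cd22 had a mean log2 intensity of 4.57 in D3, near background, and 6.29 in D8, and Cd79b had 5.79 and 5.53. Klrd1, an NK cell receptor, rose from D3 to D8 by 1.37 ± 0.25 log2 units (SE, limma adjusted p 0.00072). The summed T cell markers ranged from 44135 to 46073 in D3 and 41758 to 45057 in D4. They ranged from 38977 to 39786 in D6 and 36757 to 37500 in D8, so all D8 arrays lay below all D3 arrays. The sum is of linear intensities, so the brightest markers, Cd3g, Cd3d and Cd3e, weigh most in it. From D3 to D8 limma called 1 of the 7 higher and 2 lower, beside 36.5% of all genes. Trat1 went up, from a mean log2 intensity of 9.75 to 10.44. The part of these markers in the results was not tested. An array shows RNA relative to the rest of its sample, so fewer ribosomal protein transcripts per cell and fewer cells that carry them cannot be told apart.

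D8 was compared with D3 to ask how the family stands after the most and the fewest divisions sampled. The differences were small. Of 58 genes, 6 were higher and 11 lower in D8 at a limma adjusted p under 0.05 (17 genes, or 29.3%), while 36.5% of all 9566 genes tested were called (17.6% higher and 18.9% lower). The share of ribosomal protein genes did not exceed that background. All 17 changes were smaller than 2-fold, whereas 728 genes of the whole array changed by more than that.

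Of these 17, Rpl22 (lower) and Rpl13a, Rplp0 and Rpl21 (higher) were also called under each of the 8 other gene-level processing settings and in each of 12 fits that left out 1 array. With each array centred on its own median in place of quantile normalization, 5 genes were called (4 higher and 1 lower), beside 25% of all genes. That setting moved the median of all genes by -0.06. With each array centred on the median of the ribosomal protein genes, which moved the median of all genes to 0.19, 8 were called. Of these 7 were higher and 1 lower, beside 41.8% of all genes. That centring takes out any shift shared by the family, so it cannot show whether more of its genes fell than rose. With quantile-normalized values of all 12 arrays, 1 probe per gene, and with the authors' values, 6 were higher and 11 lower. Lower calls did not outnumber higher ones with median centring, over single probes (12 higher and 10 lower) or without some arrays. Without D3 replicate 3 there were 5 higher and 5 lower, and without D8 replicate 1 or D8 replicate 2 there were 4 and 4. The share of all genes called without these arrays was not computed.

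**Figure D1:**
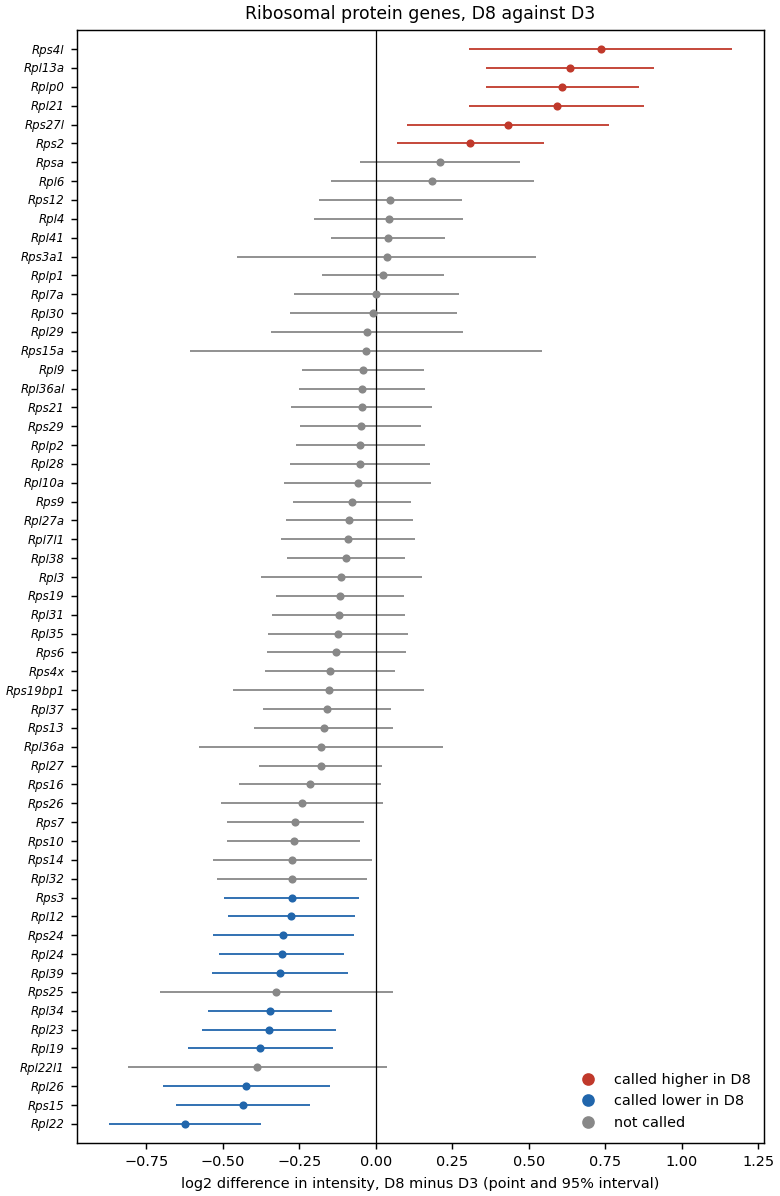
Log2 difference in normalized intensity between D8 and D3 for each of the 58 ribosomal protein genes (x axis; point and 95% interval, 3 arrays per division), 1 gene per line. Red marks the 6 genes called higher in D8, blue the 11 called lower and grey those not called; the intervals of most grey genes cross 0.

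Rpl22, of the large subunit, had the widest fall of the 58 genes. In mice it is needed for the development of alpha-beta T cells. Its log2 intensities were 10.64, 10.67 and 10.75 in D3 (experiments 1, 2 and 3), 10.56, 10.75 and 10.65 in D4, 10.32, 10.41 and 10.53 in D6, and 9.93, 9.96 and 10.29 in D8. Every D8 array lay below every array of the other divisions. Rpl22 fell by 0.63 ± 0.12 log2 units from D3 to D8 (SE, n = 3 per division, limma adjusted p 0.00073), a 1.54-fold difference. It fell by 0.71, 0.72 and 0.45 within experiments 1, 2 and 3.

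Rps15, a protein of the small subunit's head, fell at the last step. Its values were 12.92, 12.92 and 12.996 in D3, 13.15, 12.98 and 12.87 in D4, 12.92, 12.95 and 12.996 in D6, and 12.45, 12.46 and 12.62 in D8. D8 stood apart from the other 9 arrays, which overlapped one another. From D3 to D8 it fell by 0.43 ± 0.10 (limma adjusted p 0.0042) and from D6 to D8 by 0.44 ± 0.10 (0.0145).

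Rpl34, of the large subunit, was at 13.22, 13.05 and 13.08 in D3, 13.17, 13.09 and 13.16 in D4, 12.91, 12.89 and 12.83 in D6, and 12.85, 12.70 and 12.76 in D8. D3 and D4 overlapped, and each array of D6 and D8 lay below them. It fell by 0.35 ± 0.09 from D3 to D8 (limma adjusted p 0.010). The D3 to D8 calls of Rps15 and Rpl34 held in each of 12 fits that left out 1 array, but not with median centring or with centring on the family.

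A further 8 genes fell from D3 to D8 by smaller steps or with less certainty. Rpl26, known to bind p53 mRNA in human cells, fell by 0.42 ± 0.13 (limma adjusted p 0.018), and Rpl19, which helps bridge the subunits, by 0.38 ± 0.11 (0.016). Rpl23, an MDM2-binding protein, fell by 0.35 ± 0.10, Rpl39, of the peptide exit tunnel, by 0.31 ± 0.10, Rpl24, another bridge protein, by 0.31 ± 0.09, and Rpl12, of the stalk base, by 0.28 ± 0.10. In the small subunit Rps24, mutated in some patients with Diamond-Blackfan anaemia, fell by 0.30 ± 0.11, and Rps3, at the mRNA entry channel, by 0.28 ± 0.10. The adjusted p of these last 6 ran from 0.015 to 0.0497. In each of the 8 genes the 3 D8 arrays lay below the 3 D3 arrays, as in 24.1% of all genes. The 8 were called on these same values, so this lends the calls no further weight.

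Each of these 8 calls was lost in some of the fits that left out 1 array. Those fits did not use the experiment as a block. With the block and all 12 arrays, none of the 8 calls was lost. Without D3 replicate 2, D3 replicate 3, D8 replicate 1 or D8 replicate 2 the count of 17 became 11, 10, 8 and 8. How many of all genes were called in the same fits was not computed. Rpl19 was not called without D3 replicate 2, D3 replicate 3 or D8 replicate 1 (limma adjusted p up to 0.072), and Rpl23 without D3 replicate 3 or D8 replicates 1 or 2 (up to 0.062). The other detected Rpl23 probes had -0.28 ± 0.14 and -0.03 ± 0.13, neither called, and the mean of all 3 gave -0.22 (0.072). Rpl24 was lost without D3 replicates 1 or 3 or D8 replicate 2 (up to 0.088), and Rpl26 without D3 replicate 1 or D8 replicates 1 or 2 (up to 0.077). Rpl39 was lost without D3 replicates 2 or 3 or D8 replicates 1 or 2 (up to 0.11), and Rpl12 without any 1 array of D3 or D8 (up to 0.11). Rps24 was lost without any 1 array of D3, D4 replicate 3, D6 replicate 3 or D8 replicates 1 or 2 (up to 0.14). Rps3 was called in 1 of the 12 fits, the one without D3 replicate 3 (up to 0.18 in the others).

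With the experiment as a block, 5 more genes were called lower in D8 than in D3: Rpl22l1, the paralog of Rpl22 (-0.39 ± 0.20, limma adjusted p 0.14 without and 0.014 with the block), Rpl32 (-0.27 ± 0.11, 0.075 and 0.017), Rps10 (-0.27 ± 0.10, 0.052 and 0.025), Rps14 (-0.27 ± 0.12, 0.096 and 0.044) and Rps7 (-0.26 ± 0.10, 0.062 and 0.040). The count with the block was 22, 6 higher and 16 lower, beside 44.1% of all genes (21.1% higher and 23% lower).

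**Figure D2:**
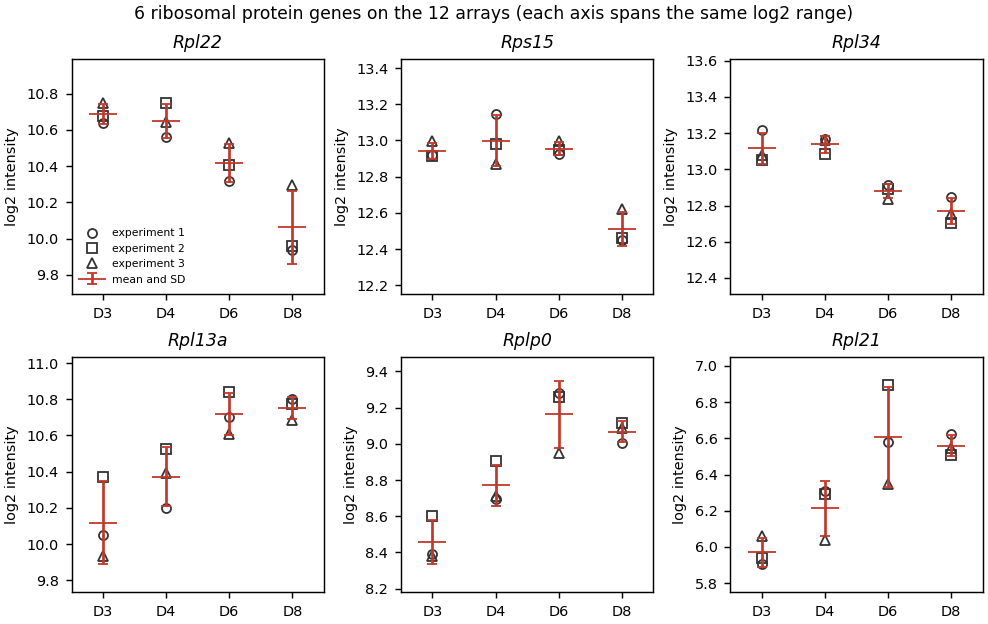
Log2 intensity (y axis) of 6 ribosomal protein genes on the 12 arrays, by division (x axis). Open symbols are the 3 experiments, and red bars the mean and SD of 3 arrays. The means of Rpl22, Rps15 and Rpl34 were lowest in D8, and those of Rpl13a, Rplp0 and Rpl21 were lowest in D3.

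Of the genes that rose, Rpl13a, Rplp0 and Rpl21 were already higher at D6. Rpl13a is a large-subunit protein that in human myeloid cells leaves the ribosome after interferon gamma to silence inflammatory mRNAs. Its log2 intensities were 10.05, 10.37 and 9.93 in D3, 10.20, 10.52 and 10.40 in D4, 10.70, 10.84 and 10.61 in D6, and 10.80, 10.77 and 10.69 in D8. D6 and D8 overlapped and both lay above D3 and D4. It rose by 0.63 ± 0.13 from D3 to D8 (limma adjusted p 0.0014) and by 0.60 ± 0.13 from D3 to D6 (0.0063).

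Rplp0 holds the stalk to which elongation factors bind. Its detected probe gave 8.39, 8.60 and 8.38 in D3, 8.69, 8.90 and 8.71 in D4, 9.28, 9.26 and 8.95 in D6, and 9.003, 9.11 and 9.09 in D8. Every D4 array was above every D3 array, and every D6 and D8 array above every D4 array. It rose by 0.61 ± 0.12 from D3 to D8 (limma adjusted p 0.00094) and by 0.70 ± 0.12 from D3 to D6 (0.0011), while a second Rplp0 probe was detected on 0 arrays. The other stalk proteins, Rplp1 and Rplp2, differed by 0.02 ± 0.09 (95% interval -0.18 to 0.22) and -0.05 ± 0.10 (-0.26 to 0.16).

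Rpl21, of the large subunit, was measured by 3 probes, and all were called higher in D8 than in D3. All 3 were dim, with mean log2 intensities of 6.34, 5.75 and 5.48, beside a median of 6.57 for all detected probes. The brightest gave 5.91, 5.94 and 6.06 in D3, 6.31, 6.29 and 6.04 in D4, 6.58, 6.90 and 6.35 in D6, and 6.62, 6.51 and 6.55 in D8. D8 and D3 did not overlap, and 1 D4 array lay within the range of D3. It rose by 0.59 ± 0.13 (limma adjusted p 0.0030), and the other probes by 0.70 ± 0.14 and 0.78 ± 0.15.

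Rps2, which lies where mRNA enters the small subunit, was the 1 canonical small-subunit protein that rose from D3 to D8. Its values were 14.12, 13.91 and 14.27 in D3, 14.17, 14.09 and 14.22 in D4, 14.14, 14.15 and 14.37 in D6, and 14.40, 14.38 and 14.44 in D8. The D8 arrays lay above all others. The difference was 0.31 ± 0.11 (limma adjusted p 0.044), and a second, also bright probe gave 0.49 ± 0.12. The call held in 3 of 12 fits that left out 1 array, those without D3 replicate 3, D6 replicate 1 and D6 replicate 3, and the adjusted p was up to 0.20 in the others.

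Of the 6 paralogs and partners, Rps27l and Rps4l rose. Rps27l, a p53-induced relative of Rps27 in human cells, was at 12.41, 12.09 and 12.12 in D3, 12.53, 12.00 and 12.11 in D4, 12.39, 12.10 and 12.29 in D6, and 12.86, 12.58 and 12.48 in D8. D8 was highest within every experiment. The rise from D3 was 0.43 ± 0.15 (limma adjusted p 0.041), and it was lost without D3 replicates 2 or 3, D6 replicate 3 or D8 replicates 1 or 2 (up to 0.17). Rps4l, a relative of Rps4x that RefSeq lists as a transcribed pseudogene although its symbol lacks -ps, rose by 0.73 ± 0.20 (0.010). It was near background, with 4.68, 4.64 and 4.798 in D3, where it was detected on 1 of 3 arrays, and 6.00, 5.17 and 5.16 in D8, where it was detected on all 3. The Rps4l change was 1.32, 0.53 and 0.36 in experiments 1, 2 and 3. It was 0.46 without D8 replicate 1 and 0.34 with normexp background correction, so its size is uncertain. Rps4x itself had -0.15 ± 0.10, which did not pass.

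Rpl36al, the autosomal copy of Rpl36a, had a difference of -0.05 ± 0.10 (95% interval -0.25 to 0.16) and Rpl36a one of -0.18 ± 0.19. Rpl7l1, a relative of Rpl7, had -0.09 ± 0.10, and Rps19bp1, a partner of Rps19 and no ribosomal protein, -0.15 ± 0.15. Probes for such near-identical genes, and for their many processed pseudogenes, can catch one another's transcripts, so these values belong to probes more securely than to genes.

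The genes with the tightest limits were all bright. All but Rpl36al lay near the highest value of the arrays, where quantile normalization spaces values narrowly. Their intervals therefore bound the normalized values more than the RNA. Rplp1, Rpl41 (0.04 ± 0.09), Rpl9 (-0.04 ± 0.09), Rps29 (-0.05 ± 0.09) and Rpl36al had 95% intervals from D3 to D8 that stayed within 0.25 log2 units of 0. For 34 of the 58 genes the interval stayed within 0.5, and for 57 within 1.

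As a group the family had its lowest level in D8. Its median difference from D3 to D8 was -0.11, against 0.00 for all genes, with a range of -0.63 to 0.73. The median was negative with neqc, normexp, median-centred and authors' values. It was 0.08 when arrays were centred on the family itself, which removes a shared shift. In D8 44 of 58 genes (75.9%) were below D3, as were 49.99% of all genes. Within experiments 1, 2 and 3 the medians were -0.15, -0.12 and -0.10, with 46, 37 and 43 of 58 genes below 0. The share of all genes below 0 within each experiment was not computed. The 3 D8 arrays lay wholly below the 3 D3 arrays for 23 of 58 genes and wholly above for 6, beside 24.1% and 22.7% of all genes.

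Each gene was then set against its own mean over 12 arrays. The family median was 0.04 ± 0.01 in D3 (SD over 3 arrays) and 0.05 ± 0.02 in D4. It was 0.03 ± 0.04 in D6 and -0.09 ± 0.05 in D8. The D8 arrays were lowest, from -0.13 to -0.04, and below all others, whose lowest was -0.01. The number of detected probes of the whole array was 16316 ± 241 (SD) in D3 and 16194 ± 453 in D4. It was 16317 ± 303 in D6 and 15898 ± 297 in D8. Its part in the lower family median of D8 was not tested.

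**Figure D3:**
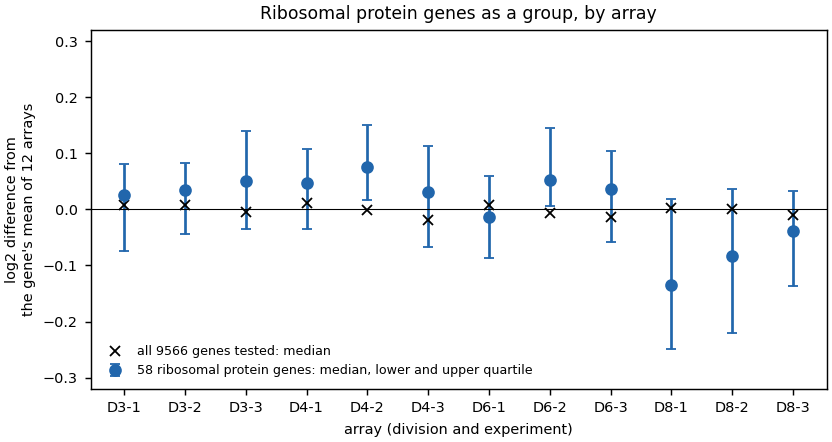
Median and quartiles, over 58 ribosomal protein genes, of the log2 difference between an array and the gene's mean of all 12 arrays (y axis), for each array (x axis). Crosses are the median of all 9566 genes. The D8 arrays have the lowest family medians, from -0.13 to -0.04, while the crosses stay near 0.

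Genes of both subunits fell and rose. From D3 to D8 the 31 large-subunit genes had a median of -0.10 with 3 higher and 8 lower, and the 21 small-subunit genes a median of -0.15 with 1 higher and 3 lower. These are 35.5% and 19% of each subunit, beside 36.5% of all genes. The 6 paralogs and partners had 2 higher, Rps27l and Rps4l, and 0 lower. The difference between the subunits was not tested.

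Bright and dim genes had different counts, a difference that was not tested. At a split of log2 12, chosen after the values were seen, the 41 genes at or above it had 2 higher and 10 lower in D8, beside 18.5% higher and 23.4% lower among all 286 genes of that level. The 17 genes below it had 4 higher and 1 lower, beside 17.6% and 18.8% among 9280 genes. The medians of the members were -0.15 and 0.00.

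Relative to the family median of each array, 8 genes stood apart between D3 and D8. Rpl22 fell by 0.43 ± 0.11 (limma adjusted p 0.0058). Rps4l rose by 0.92 ± 0.22, Rpl13a by 0.82 ± 0.13, Rplp0 by 0.80 ± 0.12, Rpl21 by 0.78 ± 0.13, Rps27l by 0.62 ± 0.18, Rps2 by 0.50 ± 0.12 and Rpsa by 0.40 ± 0.13, with adjusted p from 9.5e-05 to 0.026. Of these, Rps4l was detected on 1 of 3 D3 arrays, and Rpsa on 1 of 3 D3 and 2 of 3 D8 arrays, so their sizes rest on values near background. On this scale none of the other 10 genes that had been called lower were called, but the scale removes any fall shared by the family.

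Probes of 1 gene could differ in their change. Of 16 genes with more than 1 detected probe, 8 had probes of both signs from D3 to D8, although 0 had called probes of both signs. How often this holds for all genes with several detected probes was not computed, so it is not read as a trait of the family. Over all 80 probes 12 were called higher and 10 lower, beside 15.4% and 16.8% of all detected probes (32.2% together). The 5 genes whose probes differed most were Rps24, Rpl38, Rpl28, Rps13 and Rpl27a.

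For Rps24 the brightest probe was at 14.36, 14.41 and 14.52 in D3 and at 14.03, 14.06 and 14.30 in D8, a fall of 0.30 that passed over genes and not over all detected probes (limma adjusted p 0.052). A dimmer probe, annotated to another RefSeq transcript of the gene, was at 8.74, 8.82 and 8.75 in D3, 8.97, 9.12 and 8.98 in D4, 9.50, 9.61 and 9.48 in D6, and 9.54, 9.53 and 9.45 in D8. The 4 divisions had D3 lowest, D4 next and D6 with D8 on top, with no overlap between these steps. It rose by 0.74 ± 0.10 (adjusted p over probes 6.0e-05). The remaining detected Rps24 probe had -0.26 ± 0.19. Rps24 is known to be spliced into transcripts that differ at the end of the coding region.

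Rpl38, whose loss alters translation of Hox genes in the mouse embryo, had a bright probe near 14.7 that differed by -0.10 ± 0.10 and a dimmer one that rose by 0.75 ± 0.13. The dimmer probe was at 8.97, 8.60 and 8.50 in D3 and 9.50, 9.40 and 9.43 in D8, with no overlap. Rpl28, of the large subunit, was similar: the bright probe differed by -0.05 ± 0.11, and the dimmer one rose by 0.63 ± 0.12, from 7.24, 7.31 and 7.22 in D3 to 7.94, 7.89 and 7.82 in D8. For both genes the probes carry the same transcript annotation. Rps13 had -0.17 ± 0.11 and 0.44 ± 0.28, and the 4 probes of Rpl27a ran from -0.22 to 0.27, with none called.

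**Figure D4:**
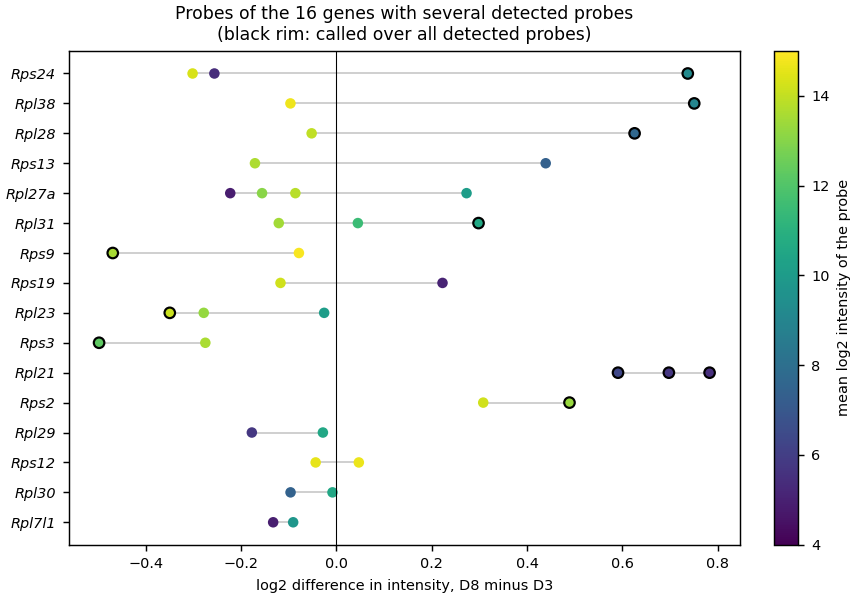
Log2 difference between D8 and D3 (x axis) of every detected probe of the 16 ribosomal protein genes with several such probes, 1 gene per line. Colour gives the probe's mean log2 intensity, and a black rim marks probes called over all detected probes. Rps24, Rpl38 and Rpl28 each have a called probe above 0.6 beside a bright probe below 0.

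D4 was compared with D3 and with the other divisions because D4 gave memory most readily. Between D4 and D3, limma called 0 of 58 genes, beside 0.0105% of all genes, and 0 with the experiment block (0.679% of all genes) and under every other setting run. Rplp0 was the 1 gene with an unadjusted p under 0.05, with 0.31 ± 0.12 (adjusted p 0.55). The family median was 0.03, and the widest difference was that of Rps4l at 0.42 ± 0.20.

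Against the mean of D3, D6 and D8, D4 had 0 of 58 genes called by limma, beside 5.92% of all genes, with 5 at an unadjusted p under 0.05 and a median of 0.07. The share of all genes at that unadjusted p was not computed. With the experiment block (12.6% of all genes) 1 gene was called, Rpl22, higher in D4 by 0.26 ± 0.09 (adjusted p 0.13 without and 0.044 with the block). Its values in D3 and D4 overlapped, as given above, so D4 was not its extreme.

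From D4 to D6, 0 of 58 genes were called, beside 4.27% of all genes, and 4 had an unadjusted p under 0.05, for which no share of all genes was computed. With the block (9.92% of all genes) Rplp0 was called (0.39 ± 0.12, limma adjusted p 0.079 without and 0.022 with it). From D3 to D6 only Rpl13a, Rpl21 and Rplp0 were called among the 58, all higher, beside 14.8% of all genes (7.4% higher). Rpl21 rose by 0.64 ± 0.13 (adjusted p 0.0054). With median centring, which moved the median of all genes from D3 to D6 by -0.13, these 3 calls were lost, beside 9.72% of all genes called. The calls held in all 12 fits without 1 array. With the experiment block (23.1% of all genes) Rps4l was also called higher (0.54 ± 0.20, limma adjusted p 0.090 without and 0.023 with the block).

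From D6 to D8, Rps15 was the 1 gene called, lower, beside 9.31% of all genes (4.54% lower). Of the 58 genes, 48 (82.8%) had a negative difference, beside 49.5% of all genes. The family median was -0.14, and that of all genes 0.00. Without D6 replicate 3 or D8 replicates 1 or 2 the Rps15 call was lost. With centring on each array's median the family median was -0.03 beside 0.06 for all genes. With the experiment block (17.4% of all genes) 5 genes were called, Rps15, Rpl22 (-0.36 ± 0.12, limma adjusted p 0.072 without and 0.022 with the block), Rpl24 (0.058 and 0.028) and Rpl12 (0.078 and 0.038) lower, and Rps27l (0.38 ± 0.15, 0.15 and 0.015) higher.

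Between D4 and D8, 2 of 58 genes were higher and 10 lower, beside 28.5% of all genes (13.9% higher and 14.6% lower). With the experiment block 6 were higher and 13 lower, beside 37.2% of all genes (18.6% in each direction). The genes added by the block were Rps27l (limma adjusted p 0.053 without and 0.0035 with it), Rpl27 (0.056 and 0.034), Rpl21 (0.067 and 0.042), Rplp0 (0.072 and 0.029), Rps24 (0.079 and 0.031), Rpl32 (0.085 and 0.019) and Rps2 (0.12 and 0.047). D8 arrays enter this comparison, the one with D3 and the one with D6, so their counts are not independent. The lower genes were Rpl22, Rps15, Rpl39, Rpl34, Rpl26, Rpl19, Rpl24, Rps3, Rpl12 and Rpl23. Rpl22 fell by 0.59 ± 0.12 (limma adjusted p 0.0016), Rps15 by 0.49 ± 0.10 (0.0024) and Rpl39 by 0.39 ± 0.10 (0.012). The higher genes were Rpl13a, by 0.38 ± 0.13 (0.039), and Rpsa. The Rpsa probe was not detected on any D4 array and gave a mean log2 of 4.46 in D4 and 4.86 in D8. With the D4 arrays set at their detection floor, the D8 mean was 1.11-fold higher, a ratio that was not tested. The limma adjusted p of 0.023 belongs to the values as measured, near background. Not every D8 array detected the Rpsa probe.

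The calls of Rpl22, Rpl34 and Rps15 between D4 and D8 held in all 12 fits that left out 1 array. That of Rpl39 was lost without D8 replicate 1 (limma adjusted p 0.054) and that of Rpl24 without D8 replicate 2 (0.067). Each of Rpl12, Rpl13a, Rpl19, Rpl23, Rpl26, Rps3 and Rpsa lost its call without 3 to 8 of the arrays. The count was 4 at its lowest, and the share of all genes called in those fits was not computed. With median centring Rpl22 alone was called, beside 16.7% of all genes.

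**Figure D5:**
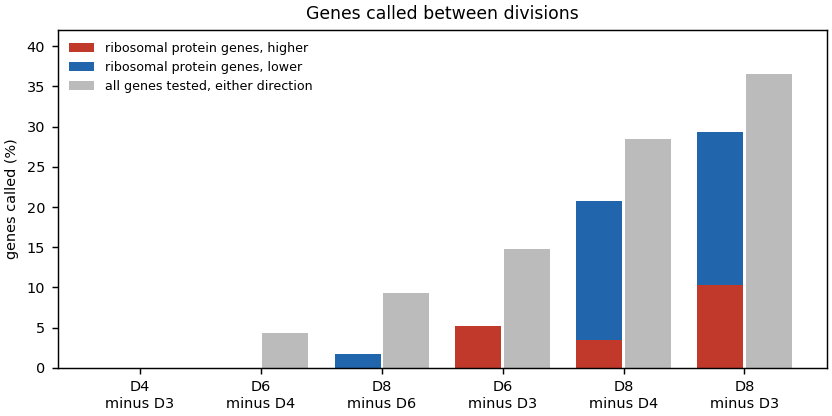
Percentage of genes called at an adjusted p under 0.05 (y axis, from 0) in each pair of divisions (x axis), for the 58 ribosomal protein genes, split into higher and lower, and for all 9566 genes. The ribosomal protein bars stay below the grey bars in every pair, with 29.3% against 36.5% between D8 and D3.

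With the number of divisions as a numeric term, 6 genes rose and 13 fell per division, beside 39.8% of all genes (19.3% and 20.5%). Rpl22 fell by 0.13 ± 0.02 log2 units per division (limma adjusted p 0.00015), and Rpl13a rose by 0.13 ± 0.03 (0.00075). Rpl32 and Rps7 passed here and not between D8 and D3 (adjusted p 0.049 and 0.029). With the experiment block (44.7% of all genes) Rpl22l1 (limma adjusted p 0.18 without and 0.038 with it), Rpl27 (0.063 and 0.049), Rps14 (0.065 and 0.032) and Rps26 (0.090 and 0.037) were called lower as well. The 4 division means fell in order for 11 of 58 genes and rose in order for 4. The share of all genes with ordered means was not computed, so no trend of the family is read from these counts.

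Genes of translation, ribosome biogenesis and RNA polymerase I were taken from lists chosen for their textbook roles. Between D3 and D8, 36.5% of all genes were called (17.6% higher and 18.9% lower). Of 20 measured genes of translation and of other TOP mRNAs, 2 rose and 5 fell from D3 to D8, with a median of -0.06. Eif4a2, an RNA helicase of initiation, fell by 0.79 ± 0.12 (limma adjusted p 0.00013), Eef1b2, the exchange factor of elongation factor 1, by 0.51 ± 0.13 and Npm1, a nucleolar chaperone, by 0.46 ± 0.14, while Hnrnpa1, a splicing factor with a TOP mRNA, rose by 0.68 ± 0.15.

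Of 31 ribosome biogenesis genes, 0 rose and 4 fell (6 with the block), with a median of -0.09. The nucleolar genes Wdr43 and Gnl3 fell by 0.62 ± 0.15 and 0.59 ± 0.19. Of 12 genes of RNA polymerase I and its factors, which make ribosomal RNA, 2 rose and 4 fell (7 with the block), with a median of -0.30. Taf1c, of the promoter selectivity complex, fell by 0.66 ± 0.13 and Taf1d, of the same complex, rose by 0.67 ± 0.15. Between D3 and D4, 0 members of these 3 lists were called, with or without the block. The mitochondrial ribosomal protein genes, a list added after values were seen, had 25 of 73 higher and 0 lower in D8 than in D3, with a median of 0.19.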

How the data were processed

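Total RNA was hybridised to Illumina bead arrays, 12 in all. The authors deposited probe intensity values, not normalized and without background subtraction, read out with BeadStudio 2.0 per the submitters' processing notes. A detection p-value stands beside each, per the file headers. A second deposited table holds processed intensity values, some below 0, whose method is not given in the sources used here; its array medians lay between 2.74 and 2.76, its direction is that of the first table (rank correlation 1 on every array), and its scale is linear. Of the probes, 34885 carry a single symbol in the platform annotation, 10378 carry none and 18 more than 1, and 34807 were matched to RefSeq by gene identifier.

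Normalization used the neqc function (limma 3.58.1, R 4.3.3), which here infers the negative controls out of the detection values, adds an offset of 16, and applies quantile normalization and log2. The brightest of a gene's detected probes was tested. All 12 arrays entered 1 limma model (lmFit, eBayes) that left 8 residual degrees of freedom. The main fit and the fits without 1 array had no term for the experiment, which entered only where the block is named. A gene was called at p under 0.05 after Benjamini-Hochberg adjustment over 9566 genes. Errors are SE of the fit unless SD is stated. Replicate numbers are the experiments named in the labels. After removal of division means, correlations between arrays sharing an experiment (18 pairs) ran from 0.20 to 0.44 and those between arrays of different experiments and divisions (36 pairs) from -0.37 to 0.03, so the numbers pair the samples. The fit was run on simulated data that held no experiment effect and moved genes in D8 only. That run cannot show how the fit handles the pairing of these samples. The precision is limited by 3 arrays per division. The members and lists were chosen with earlier results of these data known. Genes are named by these rules: calls, paralogs, stalk proteins and Rpsa, probes near the detection limit, the 5 genes with most divergent probes and the 5 with the tightest limits; of other lists, up to 4 called genes.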

Additional observations from a re-analysis of the deposited data

How the results depend on the processing

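The D8 minus D3 count of 17 ribosomal protein genes was 5 with median centring and 8 with centring on the members, and between 8 and 16 without single arrays. For the fits without single arrays, the share of all genes called was not computed. From D3 to D6, 3 genes became 0 with median centring (9.72% of all genes) and 9 probes with every detected probe tested (3 to 4 without single arrays). For counts with every probe tested in comparisons other than D8 minus D3, the share of all probes called is not given here. From D4 to D8, 12 became 1 with median centring (16.7% of all genes) and 19 with the replicate block (37.2%), and 4 to 13 without single arrays. From D6 to D8, 1 became 4 with normexp (11.3% of all genes), 0 with median centring (3.53%) and 0 with centring on the members (14.9%). It became 2 when detection on all 12 arrays was required (10.6%) and 3 without a detection filter (3.76%). With the mean of a gene's probes it was 2 (9.48%), with the replicate block 5 (17.4%) and with every probe 2. Without single arrays it was 0 to 3. From D4 to D6, 0 became 1 with normexp (5.13% of all genes), with the replicate block (9.92%) and with every probe. Without single arrays it was 0 to 1. D4 against the other divisions had 1 with normexp (6.68% of all genes), without a detection filter (1.99%) and with the replicate block (12.6%). Without single arrays it had 0 to 1. D4 minus D3 stayed at 0 throughout. The slope count of 19 was 5 with median centring (28.8% of all genes) and 8 with centring on the members (44.2%). Without single arrays it was 8 to 19. The 22 probes called between D8 and D3 became 11 with median centring (14 to 23 without single arrays). The share of all probes called in those fits is not given here. With the mean of a gene's probes, Rpl28 was at 0.29 and Rpl38 at 0.33, both called, and Rps24 at 0.060, each with the sign turned; the dimmer probes given above enter that mean. The cause of the other shifts was not tested. Of 1158 single-gene values under other settings, 1055 kept their side of the threshold, 79 lost a call, 21 gained one and the 3 just named changed sign. Changes of sign were counted only for genes called in the main fit or under the other setting. Genes called in neither could change sign as well, as Rpl10a did, from -0.06 to 0.13 with centring on the members. Apart from the calls named in the text, the block changed no call between D8 and D3. Bright probes lie near the top of the measured range, which limits what a difference among them can show.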
